A study of Homo sapiens with 12 samples.

Results

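The replication-dependent histone genes were taken by symbol. All protein-coding genes of the GENCODE annotation on GRCh38 named H1-, H2AC, H2BC, H3C or H4C with a number were members, which gave 73 of 19951 genes. They comprised 10 genes of the linker histone H1, 17 of H2A, 18 of H2B, 13 of H3 and 15 of H4. ChIP-seq, the sequencing of DNA pulled down with an antibody, had been run for H3K4me2 (dimethylated histone H3, typical of promoters and enhancers) in the human myeloid leukaemia line U-937. The cells had been kept for 24 h with the vehicle DMSO, with 0.1 µM all-trans retinoic acid (ATRA, a ligand of retinoic acid receptors), with 0.1 µM Corin (which inhibits both enzymes of the CoREST complex, the demethylase LSD1 and a histone deacetylase), or with 0.1 µM of each. There were 2 H3K4me2 libraries and 1 input library per treatment, and 1 line was used throughout. The values are 4 peak lists, 1 per treatment, each pooled over its libraries. A difference between lists therefore has no replicate error, no test across treatments was possible, and the intervals given cover counting error over genes only. In such bulk material a mark in fewer cells and less of the mark per cell cannot be told apart.

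Replication-dependent histone genes supply the histones that package newly made DNA, and their transcription is tied to S phase. The core histones H2A, H2B, H3 and H4 form the nucleosome, and H1 binds the DNA where it enters and leaves. These genes are short, mostly without introns, and lie in clusters where they share a nuclear compartment, the histone locus body, organised by NPAT. Their mRNAs end in a conserved stem-loop, bound by SLBP, in place of a poly(A) tail. Many H2A and H2B genes stand head to head and share one promoter. H3K4me2 at an active promoter usually lies on the nucleosomes on both sides of a nucleosome-poor stretch just upstream of the start site.

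The annotation bore out the label for most members. Of the 73 genes, 72 had a single exon, and the median transcript length was 492 bases. The histone stem-loop, searched on the transcribed strand within 150 bases of the transcript's end, was found in 64 of the 73 members and in 3 of the 19878 other protein-coding genes. Its forms among the members are shown because this element defines the class, with the arms of the stem in capitals. In the order shown they were found in 39, 10, 9, 4, 1 and 1 members.
Stem-loop form 1: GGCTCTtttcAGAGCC
Stem-loop form 2: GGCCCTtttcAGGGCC
Stem-loop form 3: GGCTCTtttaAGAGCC
Stem-loop form 4: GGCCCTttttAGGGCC
Stem-loop form 5: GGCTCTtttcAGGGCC
Stem-loop form 6: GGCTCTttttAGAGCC
The stem-loop was not found in H1-7, H1-8 and H1-10, which lie outside the clusters, so the label did not hold for these by this measure. H1-7 is known as a testis form and H1-8 as an oocyte form. It was also not found at the ends of H2BC10, H2BC21, H2AC15, H3C6 and H4C13. Protein sequences translated from the annotation showed how repetitive the families are. Of the 15 H4 genes 14 encode 1 protein, and of the 13 H3 genes 10 do. The 17 H2A genes encode 11 proteins, the 18 H2B genes 14 and the 10 H1 genes 10.

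Of the 73 members 66 lay in 4 clusters. Cluster 1, on chromosome 1, spanned 115.3 kb (chr1:149777689-149892965) and held 11 members. Cluster 2, on chromosome 6, was the largest, with 34 members over 572.2 kb (chr6:25718397-26290638). Cluster 3 held 5 members within 31.7 kb (chr6:27120897-27152562), and cluster 4 held 16 members within 96.4 kb (chr6:27802479-27898891). Spans include 5 kb on each side. Members outside the clusters included H2AC25 and H2BC26, a head-to-head pair on chromosome 1, H4C16 and H1-7 on chromosome 12, and H1-8 and H1-10 on chromosome 3. In all, 26 members formed 13 divergent pairs, with 193 to 978 bases between the start sites (median 239).

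The DNA in front of the start sites is shown for a few members, because the peaks described next leave just this DNA uncovered. Capitals mark matches on either strand to 5 elements. The TATA box TATAAA places the start of transcription in many promoters. The CCAAT box, CCAAT, is bound by NF-Y. The octamer ATTTGCAT is bound by POU2F1. The H1 box is AAACACA. The H4 site, GGTCCG, belongs to the element bound by HINFP in H4 promoters. Overlapping matches run together in 1 block of capitals. The first 4 sequences are the whole DNA between the start sites of divergent pairs, read from GRCh38 on the plus strand, from the gene named first to the gene named second. The others are the 250 bases before a start site, also read from GRCh38 and written in the direction of transcription. H4C14 was taken by the rule stated with the methods, and the other members were chosen after their values were seen, as examples of the families.
H2BC21/H2AC20 (chr1:149886683-149886917): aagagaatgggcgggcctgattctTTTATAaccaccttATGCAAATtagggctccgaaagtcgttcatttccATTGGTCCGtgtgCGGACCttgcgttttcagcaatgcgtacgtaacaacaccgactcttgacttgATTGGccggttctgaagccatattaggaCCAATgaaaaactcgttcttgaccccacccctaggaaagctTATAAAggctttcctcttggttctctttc
H2BC12/H2AC12 (chr6:27146856-27147105): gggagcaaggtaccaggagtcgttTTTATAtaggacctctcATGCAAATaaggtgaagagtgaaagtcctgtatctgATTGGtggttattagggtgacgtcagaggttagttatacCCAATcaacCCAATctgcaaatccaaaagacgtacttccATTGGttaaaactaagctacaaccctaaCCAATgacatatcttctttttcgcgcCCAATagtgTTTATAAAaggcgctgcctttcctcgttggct
H2AC17/H2BC17 (chr6:27893186-27893424): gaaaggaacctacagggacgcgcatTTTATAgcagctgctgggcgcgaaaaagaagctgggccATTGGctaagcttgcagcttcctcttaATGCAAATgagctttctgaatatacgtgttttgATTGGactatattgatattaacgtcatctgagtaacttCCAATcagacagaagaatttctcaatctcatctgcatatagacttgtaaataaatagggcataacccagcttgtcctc
H2BC8/H2AC8 (chr6:26216689-26216920): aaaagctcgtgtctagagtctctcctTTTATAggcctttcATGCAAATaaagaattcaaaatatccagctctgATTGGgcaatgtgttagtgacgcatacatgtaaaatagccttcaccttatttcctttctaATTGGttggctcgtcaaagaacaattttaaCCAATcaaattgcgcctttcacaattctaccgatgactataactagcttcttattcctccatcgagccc
H3C3 (chr6:26045134-26045383, plus strand): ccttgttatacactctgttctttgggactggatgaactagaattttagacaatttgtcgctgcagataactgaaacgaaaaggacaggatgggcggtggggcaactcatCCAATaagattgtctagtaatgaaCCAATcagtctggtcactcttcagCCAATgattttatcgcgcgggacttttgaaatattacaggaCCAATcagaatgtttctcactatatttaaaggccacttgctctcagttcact
H4C3 (chr6:26103683-26103932, plus strand): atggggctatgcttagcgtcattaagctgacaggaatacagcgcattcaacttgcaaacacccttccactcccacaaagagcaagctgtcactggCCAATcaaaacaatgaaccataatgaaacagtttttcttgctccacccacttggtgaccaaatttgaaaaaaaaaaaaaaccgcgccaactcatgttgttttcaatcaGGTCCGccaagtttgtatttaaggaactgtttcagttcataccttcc
H4C14 (chr1:149832407-149832656, plus strand): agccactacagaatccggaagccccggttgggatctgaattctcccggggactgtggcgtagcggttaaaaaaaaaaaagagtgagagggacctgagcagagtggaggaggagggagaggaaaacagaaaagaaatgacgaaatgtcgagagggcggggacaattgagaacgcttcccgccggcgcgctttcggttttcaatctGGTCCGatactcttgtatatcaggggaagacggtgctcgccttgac
H1-4 (chr6:26156079-26156328, plus strand): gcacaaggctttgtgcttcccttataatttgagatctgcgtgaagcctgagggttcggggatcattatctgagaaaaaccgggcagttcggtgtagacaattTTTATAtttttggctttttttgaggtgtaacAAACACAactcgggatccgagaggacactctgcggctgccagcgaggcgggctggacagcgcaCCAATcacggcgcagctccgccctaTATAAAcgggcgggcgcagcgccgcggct
The pairs carry an octamer, CCAAT boxes and a TATA box near at least 1 of the 2 start sites. H3C3 has 4 CCAAT matches and no TATAAA. Both H4 promoters carry GGTCCG near the start site, and H1-4 carries the H1 box, a CCAAT box and TATAAA.

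These elements were counted over all 27305 promoters of the RefSeq promoter table for GRCh38.p14, in which 67 members were found. Among the members, the 65 whose RefSeq start site lay within 50 bases of the start site used here were counted. H4C3, printed above, was not among these 65. A match is a description and not a bound site. TATAAA was found in 64.6% of the members and 11.1% of all promoters, and CCAAT in 83.1% and 33.0%. CCAAT was found in every H2A, H2B and H3 promoter examined (16, 18 and 9) but in 3 of 13 H4 promoters. The octamer was found in 11 of 16 H2A and 14 of 18 H2B promoters and in no other member, against 1.66% of all promoters. The H1 box was found in 7 of 9 H1 promoters and 4.95% of all promoters, and GGTCCG in 12 of 13 H4 promoters and 9.33% of all promoters. Members had a median of 9 CpG dinucleotides and 44% GC in this window, and all promoters had medians of 11 and 58%.

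Peaks stood at most of these genes in every list. In each of the DMSO, ATRA and Corin lists 54 of 73 members (74.0%, 95% Wilson interval 62.9 to 82.7%) had a peak within 1 kb of the start site, and in the ATRA+Corin list 55 (75.3%) had one. Over all protein-coding genes the share was 61.3% in DMSO, 61.5% in ATRA, 61.5% in Corin and 62.3% in ATRA+Corin. The same 54 members had a peak in all 4 lists and are called marked below. Of the families, 15 of 17 H2A, 15 of 18 H2B, 9 of 13 H3, 9 of 15 H4 and 6 of 10 H1 genes were marked. By cluster, 7 of 11 members of cluster 1, 23 of 34 of cluster 2, 5 of 5 of cluster 3 and 15 of 16 of cluster 4 were marked. Over all protein-coding genes 60.4% were marked in this sense and 36.9% had no such peak in any list. Against DMSO 0 members gained a peak at this window in ATRA, 0 in Corin and 1 in ATRA+Corin, and 0 lost one in each. All genes gained in 0.697%, 0.822% and 1.44% and lost in 0.536%, 0.662% and 0.491%. H3C8 was the only member whose state differed between lists at this window. Its nearest peak lay 1519 bases from the start site in DMSO, 1409 in ATRA, 1511 in Corin and 976 in ATRA+Corin.

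**Figure D1:**
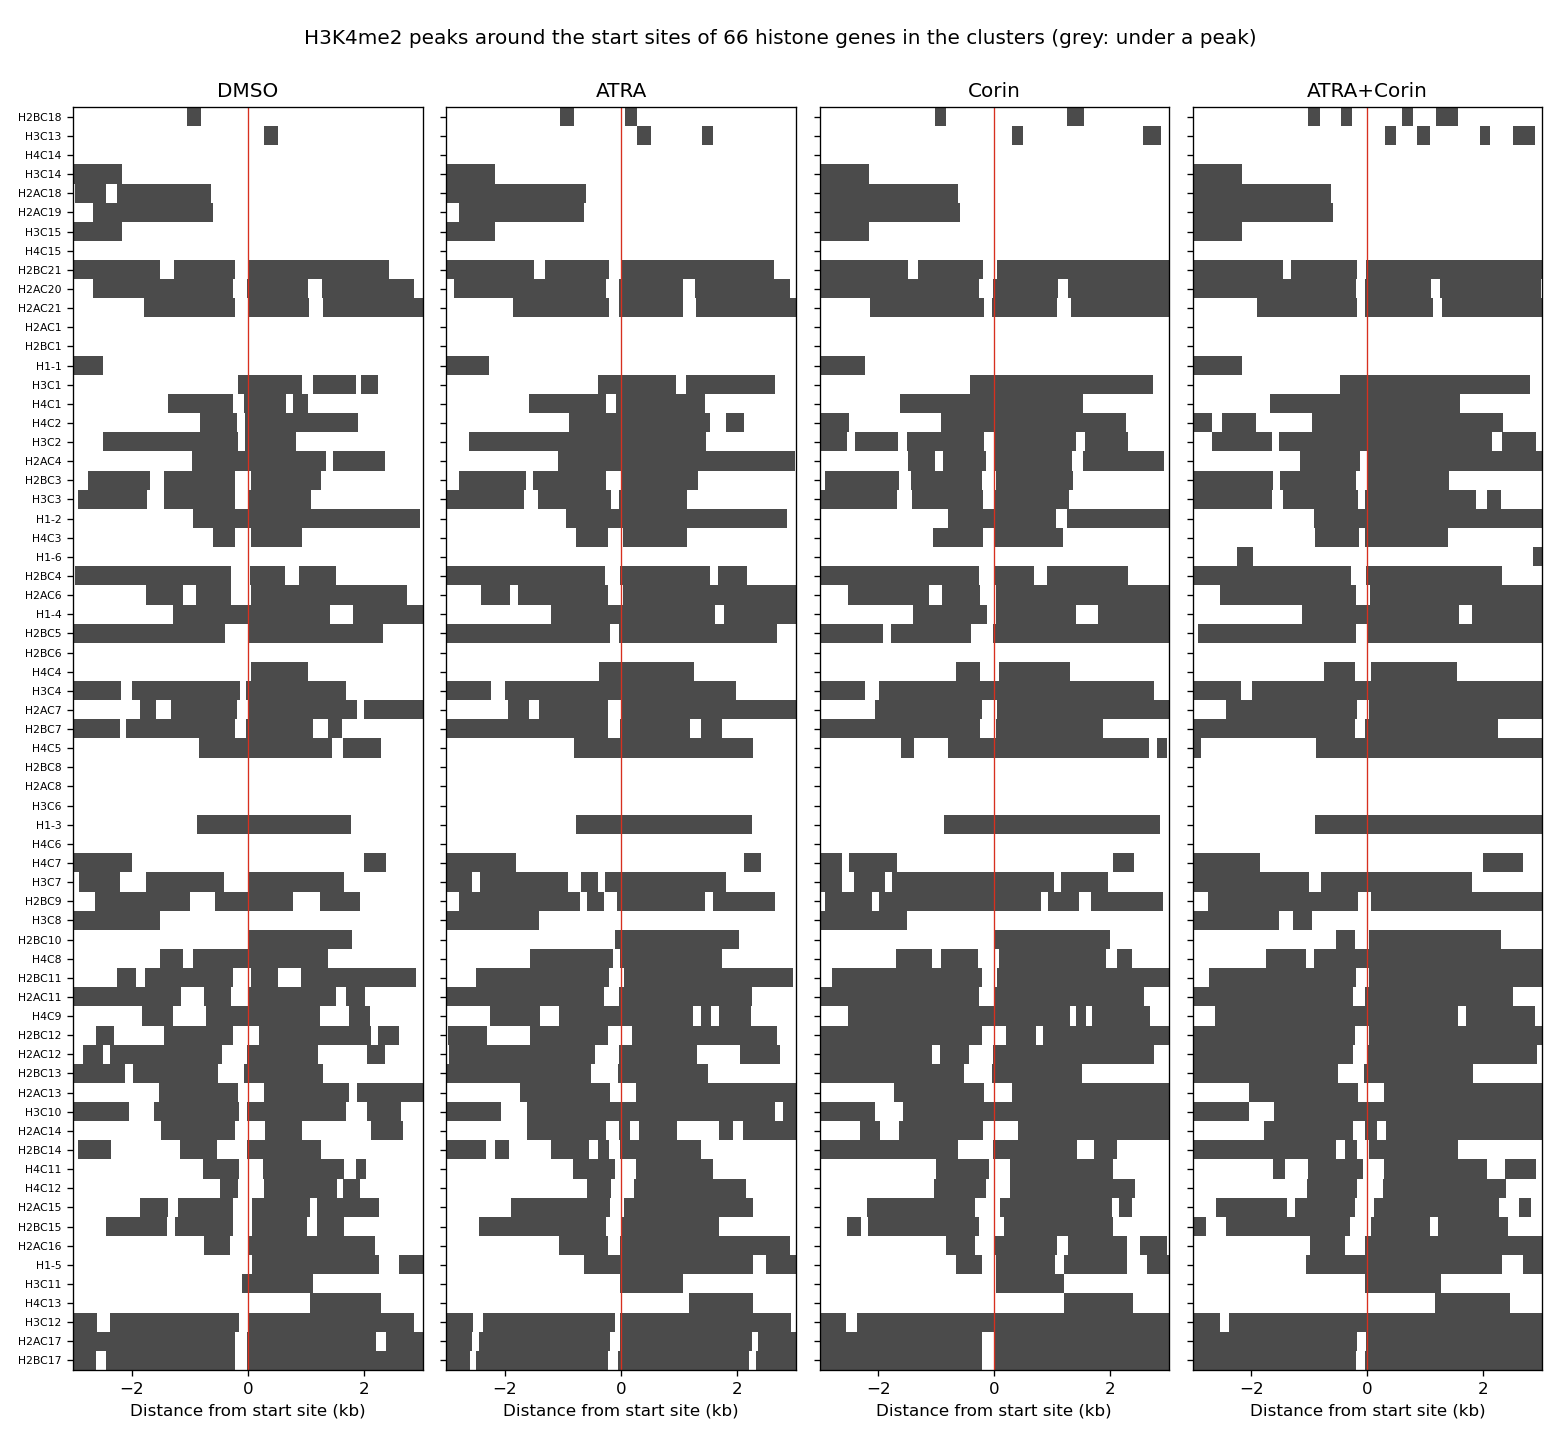
Peaks of each list within 3 kb of the start site of each of the 66 histone genes in the clusters, in genome order, drawn in the direction of transcription. Grey marks bases under a peak and the red line the start site. In most marked genes an uncovered stretch stands just before the start site in all 4 panels, and 4 rows of cluster 1, 10 of cluster 2 and 1 of cluster 4 have no grey within 1 kb in any panel.

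The bare members, 18 with no peak within 1 kb in any list, fell into 3 kinds. In the first, H4C14, H4C15, H3C14 and H3C15 lie in an inverted repeat of cluster 1, and every 75-base window within 1 kb of their start sites occurs more than once in the genome, which limits where reads of this length can be placed. The 250 bases before H4C14, shown above, are identical to those before H4C15. Whether the missing peaks at these 4 genes come from read placement was not tested. The second kind are genes known for expression in testis or oocytes: H2AC1, H2BC1, H1-6, H1-7 and H1-8. H2AC1 and H2BC1 stood farthest from any peak, 88924 and 89139 bases in DMSO and 23193 and 22978 bases in ATRA+Corin. The nearest peak of H1-7 lay 20861 bases away in DMSO and 11719 in ATRA+Corin. The remaining bare members were H1-1, H2BC6, H2BC8, H2AC8, H3C6, H4C6, H4C7 and H4C13 in the clusters, and H4C16 outside them. H1-1, in cluster 2, had its nearest peak 2487 bases away in DMSO and 2177 in ATRA+Corin. H4C13 came closest to the 1 kb limit, with a peak 1079 bases away in DMSO, 1174 in ATRA, 1196 in Corin and 1142 in ATRA+Corin. The pair H2BC8 and H2AC8 stood 9088 to 10040 bases from the nearest peak over the 4 lists. Its shared promoter, shown above, holds an octamer, 3 CCAAT boxes and a TATA box. H4C16 had its nearest peak 3759 bases away in DMSO and 3150 in ATRA+Corin. Of the 18 bare members 12 had no repeated window at all near the start site.

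The promoter elements were also counted in bare and marked members, with no test. TATAAA was found in 11 of 17 bare promoters (64.7%) and 31 of 47 marked ones (66.0%), and CCAAT in 13 of 17 (76.5%) and 40 of 47 (85.1%). The octamer was found in 5 of 17 (29.4%) and 20 of 47 (42.6%), and the H1 box in 3 of 17 (17.6%) and 4 of 47 (8.51%). GGTCCG was found in 5 of 17 (29.4%) and 11 of 47 (23.4%). The stem-loop was found in 14 of 18 bare (77.8%) and 49 of 54 marked members (90.7%).

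Within the marked genes the peaks stood on the gene body and on the far side of the promoter, with a gap between. The first 500 bases of the gene were covered to a median of 99.2% in DMSO and 100% in each of the other lists. The 250 bases before the start site were covered to a median of 9.6% in DMSO, 23% in ATRA, 15.4% in Corin and 31.8% in ATRA+Corin. Over the 12044 protein-coding genes with a peak within 1 kb in every list, the same window was covered to a median of 100%, 100%, 86.2% and 84.8%. The whole window was under a peak in 10 of 54 marked members in DMSO, 16 in ATRA, 13 in Corin and 17 in ATRA+Corin, against 61.6%, 64.8%, 48.6% and 48.6% of all marked genes.

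**Figure D2:**
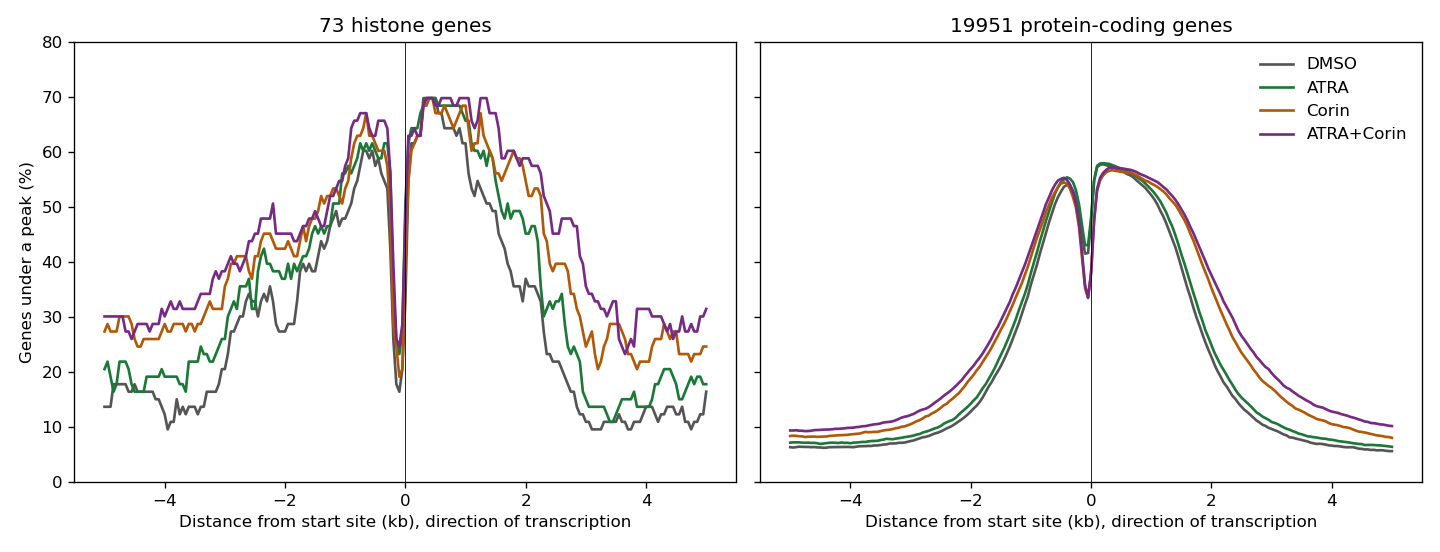
Percentage of start sites with a peak over each position from 5 kb before to 5 kb after the start site, for the 73 histone genes (left) and all 19951 protein-coding genes (right), with 1 line per list. The dip before the start site is deeper in the histone genes, and the ATRA+Corin line is highest at 2 kb on either side.

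Single positions were read in the same way. The position 150 bases before the start site lay under a peak in 13 of 73 members in DMSO, 19 in ATRA, 18 in Corin and 19 in ATRA+Corin (17.8% in DMSO), whereas it was covered in 45%, 46.7%, 40.8% and 41.7% of all genes. At 500 bases into the gene the counts were 51, 51, 49 and 50 members (69.9% in DMSO), against 56.6%, 57%, 56.4% and 57.1% of all genes. A gap over the 250-base window with peaks within 1 kb on both sides was found in 35 marked members in DMSO, 33 in ATRA, 35 in Corin and 33 in ATRA+Corin. The median gap was 281, 239, 264 and 210 bases long in these lists. Its upstream side ended at a median of −238, −230, −235 and −214 bases from the start site. On its downstream side cover began at a median of 13, −3, 7 and −5 bases, negative values lying before the start site. In these 4 lists 30, 29, 29 and 28 of the gaps ended within 100 bases of the start site, so that the start site sat at the edge of a peak. Gaps were measured in the members only, so whether these counts differ from those of other genes is not known.

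The octamers and CCAAT boxes of marked members lay mostly outside the peaks in each list, and the other elements did so in some lists only or not at all. Of 46 TATAAA matches in marked members, 35 were outside every peak in DMSO, 20 in ATRA, 32 in Corin and 21 in ATRA+Corin. Of 20 octamers, 18, 17, 18 and 19 were outside, and of 115 CCAAT matches 102, 92, 101 and 94, with matches shared by paired genes counted for each gene. The median position was −31 for TATAAA, −96 for CCAAT and −118.5 for the octamer. The GGTCCG matches lay outside in 8, 7, 8 and 7 of 15 cases. Of 6 H1 box matches 2, 0, 3 and 0 lay outside. The promoter window of these members was itself covered only to medians of 9.6%, 23%, 15.4% and 31.8% in the same order of lists. Most positions in it were thus outside peaks in many members. Whether the elements lay outside more often than other positions of the window, or than matches in other genes, was not tested.

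The divergent pairs showed the gap from both sides. In the 11 pairs with both genes marked, the DNA between the start sites was covered to a median of 2% in DMSO, 12.3% in ATRA, 8.4% in Corin and 18.9% in ATRA+Corin. In the 511 other marked divergent pairs with start sites 193 to 968 bases apart, the medians were 61.6%, 67.2%, 43.4% and 34.8%. The median distance was 359 bases in these pairs and 243 in the member pairs. Over all 879 other marked pairs, with a median distance of 233 bases, the medians were 65.2%, 72.8%, 26.6% and 20.6%. The last of these is near the 18.9% of the member pairs in ATRA+Corin. For H2BC21/H2AC20, whose sequence is shown above, 231 of the 235 bases between the genes were uncovered in DMSO, 206 in ATRA, 205 in Corin and 158 in ATRA+Corin. In the last of these lists bases 23 to 180 of the printed sequence remained outside peaks, a stretch that holds every marked element except the TATAAA next to H2AC20. For H2BC12/H2AC12 245, 230, 229 and 231 of the 250 bases were uncovered. For H2AC17/H2BC17 223, 193, 210 and 151 of the 239 bases were uncovered. These 3 pairs were chosen after their values were seen, and the gap was longest in DMSO in each. Other pairs went the other way: H2AC7/H2BC7 was covered to 17.6% in DMSO, 0% in ATRA and Corin and 18.9% in ATRA+Corin, and H2BC13/H2AC13 to 26.7% in DMSO and 21.8% in Corin. H3C7/H2BC9, the pair with the greatest distance (978 bases), differed: 57.7% of its DNA was covered in DMSO, 65.5% in ATRA, 100% in Corin and 83.3% in ATRA+Corin. No base between H2AC15 and H2BC15 was covered in any list, although both genes were marked.

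Several H1 genes departed from this form. H1-2, H1-3 and H1-10 had the whole 250-base window under a peak in all 4 lists. H1-4 had it in DMSO, ATRA and ATRA+Corin and not in Corin. H1-5 had the form in Corin, with a gap of 231 bases from −229 to 3. Among H4 genes H4C5 and H4C9 were covered throughout in all 4 lists.

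**Figure D3:**
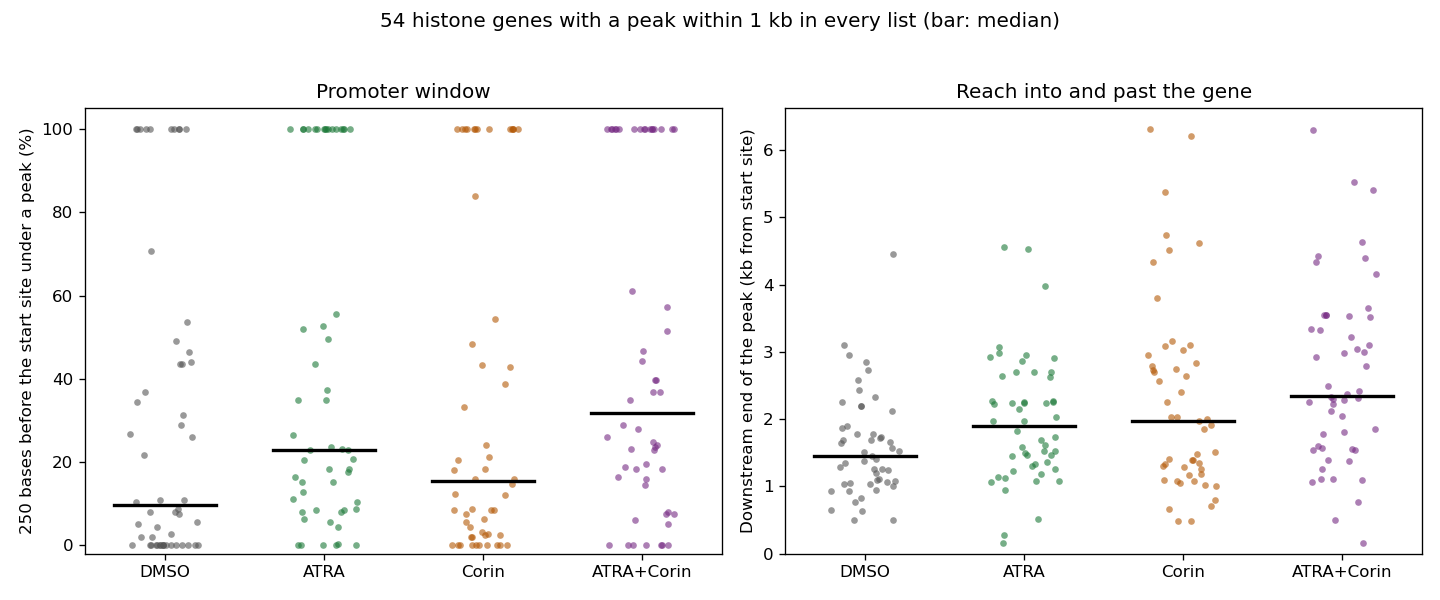
Left, percentage of the 250 bases before the start site under a peak, 1 point per marked histone gene and list. Right, distance from the start site to the downstream end of the peak at or next after it, for the marked genes with such a peak within 1 kb. Points are spread sideways for sight only. The medians (bars) are lowest in DMSO and highest in ATRA+Corin in both panels.

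The start sites themselves followed the edges of these gaps. In DMSO 24 of 73 start sites lay under a peak (32.9%, interval 23.2 to 44.3%), in ATRA 37 (50.7%, 39.5 to 61.8%), in Corin 29 (39.7%, 29.3 to 51.2%) and in ATRA+Corin 35 (47.9%, 36.9 to 59.2%). All genes had 47.3%, 48.1%, 38% and 38%. Part of this comparison rests on how many genes had a peak nearby. Over marked genes alone the shares were 44.4%, 68.5%, 53.7% and 64.8% of the 54 members and 78.0%, 79.1%, 62.4% and 62.0% of all marked genes, so that the marked members were below in DMSO, ATRA and Corin and near them in ATRA+Corin. The count in DMSO also rests on short gaps: it was 46 with a peak within 150 bases counted as cover and 47 with peaks within 1 kb joined. The intervals of the members' shares overlap between all lists. The same 73 genes are counted in each list, so this overlap does not compare the lists gene by gene. In 33 members the start site was under no peak in any list, and in 17 it was under one in all 4, against 46.4% and 30.8% of all genes.

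Against DMSO, 13 members gained start-site cover in ATRA and 0 lost it, where all genes gained in 4.69% and lost in 3.89%. In Corin 10 gained and 5 lost it, where all genes gained in 2.32% and lost in 11.6%. In ATRA+Corin 13 gained and 2 lost it, where all genes gained in 2.69% and lost in 11.9%. These contrasts share the DMSO list. The shares are over every gene, though only a start site covered in DMSO can lose cover. Of those covered in DMSO, 0 of 24 members and 777 of 9433 genes lost it in ATRA. In Corin 5 of 24 and 2306 of 9433 lost it, and in ATRA+Corin 2 of 24 and 2382 of 9433. A gain needs an uncovered start site, which 30 of 54 marked members and 2654 of 12044 marked genes had in DMSO. Groups with equal cover in DMSO were not compared. Between ATRA+Corin and ATRA, 3 members gained and 5 lost cover (1.99% and 12% of all genes), and between ATRA+Corin and Corin 9 gained and 3 lost it (5.61% and 5.62%). Most of these differences were short shifts of a peak edge. With a peak within 150 bases counted as cover, the net gain against DMSO was 2 members in ATRA, 1 in Corin and 2 in ATRA+Corin, in place of 13, 5 and 11.

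The H2A genes gave 4 members with differing start sites. At H2AC11 cover began 6 bases after the start site in DMSO, at −38 in ATRA, −8 in Corin and −46 in ATRA+Corin. At H2AC16 it began at 20, −3, −6 and −47, and at H2AC21 at 15, −24, −45 and −46. All 3 genes were thus uncovered at the start site in DMSO only. H2AC14 was split: cover began at 292 in DMSO and 387 in Corin, and at −36 in ATRA and −52 in ATRA+Corin, where a short peak ended 150 bases into the gene. H2AC6, H2AC7 and H2AC25 had the start site uncovered in every list, with cover from 19 to 43 bases after it for H2AC6.

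The H2B genes were the most varied, with 9 members in some and not all lists. At H2BC4 cover began at 36 in DMSO, −16 in ATRA, 0 in Corin and −36 in ATRA+Corin, and at H2BC5 at 17, −24, −21 and −6. At H2BC3 it began at 51, 6, 20 and −12, and at H2BC21, the partner of H2AC20, at 5, 6, 27 and −22. These last 2 start sites were covered in ATRA+Corin only. H2BC26, outside the clusters, began at 1, −5, 7 and 36, so that it was covered in ATRA only. H2BC7 began at −39, 0, 9 and −42 and was uncovered in Corin only. H2BC14 and H2BC9 were covered in DMSO, ATRA and Corin and not in ATRA+Corin. The shift was 1 base past the start site at H2BC14 and 41 bases at H2BC9. H2BC10 had 0 of its 250 upstream bases under a peak in DMSO, 109 in ATRA, 7 in Corin and 20 in ATRA+Corin. H2BC12 was uncovered at the start site in all lists, with cover beginning at 194, 200, 200 and 7. H2AC13, H4C11 and H4C12 likewise had cover only from 236 to 292 bases after the start site in all 4 lists.

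Of the H3 genes, H3C3 began at 14 in DMSO, −36 in ATRA, −13 in Corin and −44 in ATRA+Corin. H3C7 began at 4 in DMSO, and its start site and whole 250-base window were covered in the 3 other lists. In ATRA an uncovered stretch began 277 bases before this start site, within the stretch uncovered in DMSO. H3C12 began at 4 in DMSO and 0 in ATRA, and its gap was closed in both Corin lists. H3C11 had 109, 14, 0 and 46 of its 250 upstream bases covered, and its start site was uncovered in Corin only. H3C1 had 177 upstream bases covered in DMSO and all 250 in the other lists, and H3C2 had 123, 250, 83 and 250. Both had the start site covered throughout.

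Of the H4 genes, H4C3 began at 42, 31, −2 and −49, so that the gap shown in its sequence shrank from 239 bases of the window in DMSO to 229 in ATRA, 199 in Corin and 107 in ATRA+Corin. Bases 95 to 201 of the printed sequence, which hold the CCAAT box and not the GGTCCG, were still uncovered in the last list. H4C4 had its whole window covered in ATRA and 0, 6 and 13 bases in DMSO, Corin and ATRA+Corin. H4C8 was covered throughout the window in DMSO and ATRA+Corin, over 130 bases in ATRA and over 0 in Corin, where cover began at 68.

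Of the H1 genes, H1-4 had an uncovered start site in Corin only. In that list a gap ran from −130 to 4 at H1-4. The bases of the H1-4 window left uncovered there, 122 to 250 of the printed sequence, hold the H1 box, the CCAAT box and the TATAAA nearest the start site. H1-5 had 0 upstream bases covered in DMSO, 250 in ATRA, 22 in Corin and 250 in ATRA+Corin.

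Taken within each marked gene, cover of the 250-base window was higher than in DMSO in 33 of 54 members in ATRA (lower in 8), in 28 in Corin (lower in 12) and in 33 in ATRA+Corin (lower in 5). Over all marked genes it was higher in 23.1% of 12044 in ATRA, 13.7% in Corin and 14.7% in ATRA+Corin, and lower in 16.7%, 36.4% and 35.9%. The median difference from DMSO was 6.2 percentage points in ATRA, 2.2 in Corin and 7 in ATRA+Corin for the members, and 0 in each for all marked genes. In both lists with Corin all marked genes lost cover more often than they gained it, and the members gained it more often than they lost it. The groups started from unlike cover in DMSO, a median of 9.6% in the marked members and 100% in all marked genes. The whole window was covered there in 10 of 54 members and 61.6% of all marked genes. A fully covered window can only lose cover, and a bare one can only gain it. Groups with equal cover in DMSO were not compared. The lists also differ in length, from 65172 peaks in DMSO to 66385 in ATRA, 73997 in Corin and 83969 in ATRA+Corin. The part of list length in these differences was not tested. With equal numbers of peaks in each list, the start-site counts were again 24 in DMSO, 37 in ATRA, 29 in Corin and 35 in ATRA+Corin. That setting drops peaks from the longer lists and leaves the edges of the kept peaks as they were. It therefore cannot show how list length or depth bears on peak edges.

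Peak ends lay farther into and past the genes in the drug lists. The downstream end of the peak at or next after the start site lay at a median of 1452 bases in DMSO, 1894 in ATRA, 1976 in Corin and 2347 in ATRA+Corin. It lay farther than in DMSO in 44 of 51 members in ATRA (86.3%), 42 in Corin (82.4%) and 47 in ATRA+Corin (92.2%), against 63.5%, 81.9% and 82.7% of all marked genes. The Corin share was near that of all marked genes. The median differences were 203, 373 and 767 bases, and over all marked genes 45, 288 and 368 bases. With a median transcript of 492 bases, these peaks cover the gene and run on into the DNA past it. Some of the longer distances came from neighbouring peaks that were joined. At H2AC7 the end lay 1868 bases from the start site in DMSO, 3982 in ATRA, 4738 in Corin and 5522 in ATRA+Corin. In the drug lists this peak was also that of the neighbour H3C4, and in DMSO a gap of 116 bases before the H3C4 start site parted the 2 peaks. At H3C1 it lay at 939, 942, 2702 and 2790 bases and at H4C1 at 645, 1449, 1504 and 1592 bases. These neighbours shared 1 peak in both Corin lists, where the gap of 180 bases in DMSO and 168 in ATRA before the H4C1 start site was closed. H1-3 reached 1775, 2244, 2834 and 4342 bases. H2BC17 went the other way in ATRA, with 3094 bases in DMSO, 2219 in ATRA, 3799 in Corin and 3533 in ATRA+Corin.

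At 2000 bases past the start site 27 members lay under a peak in DMSO, 33 in ATRA, 40 in Corin and 43 in ATRA+Corin, against 22.8%, 24.9%, 35.3% and 37.7% of all genes. Against DMSO 8 members gained and 2 lost cover there in ATRA, 14 gained and 1 lost it in Corin, and 16 gained and 0 lost it in ATRA+Corin. All genes gained in 4.9%, 13.5% and 15.8% and lost in 2.76%, 0.942% and 0.927%. At 2000 bases before the start site 20, 27, 31 and 33 members were covered, against 12.8%, 14.3%, 18.9% and 20.6% of all genes. There 7 members gained and 0 lost cover in ATRA against DMSO, 12 gained and 1 lost it in Corin, and 13 gained and 0 lost it in ATRA+Corin. All genes gained in 2.58%, 6.57% and 8.28% and lost in 1.15%, 0.526% and 0.516%. Neighbouring members share peaks at these distances, so the counts are not independent.

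**Figure D4:**
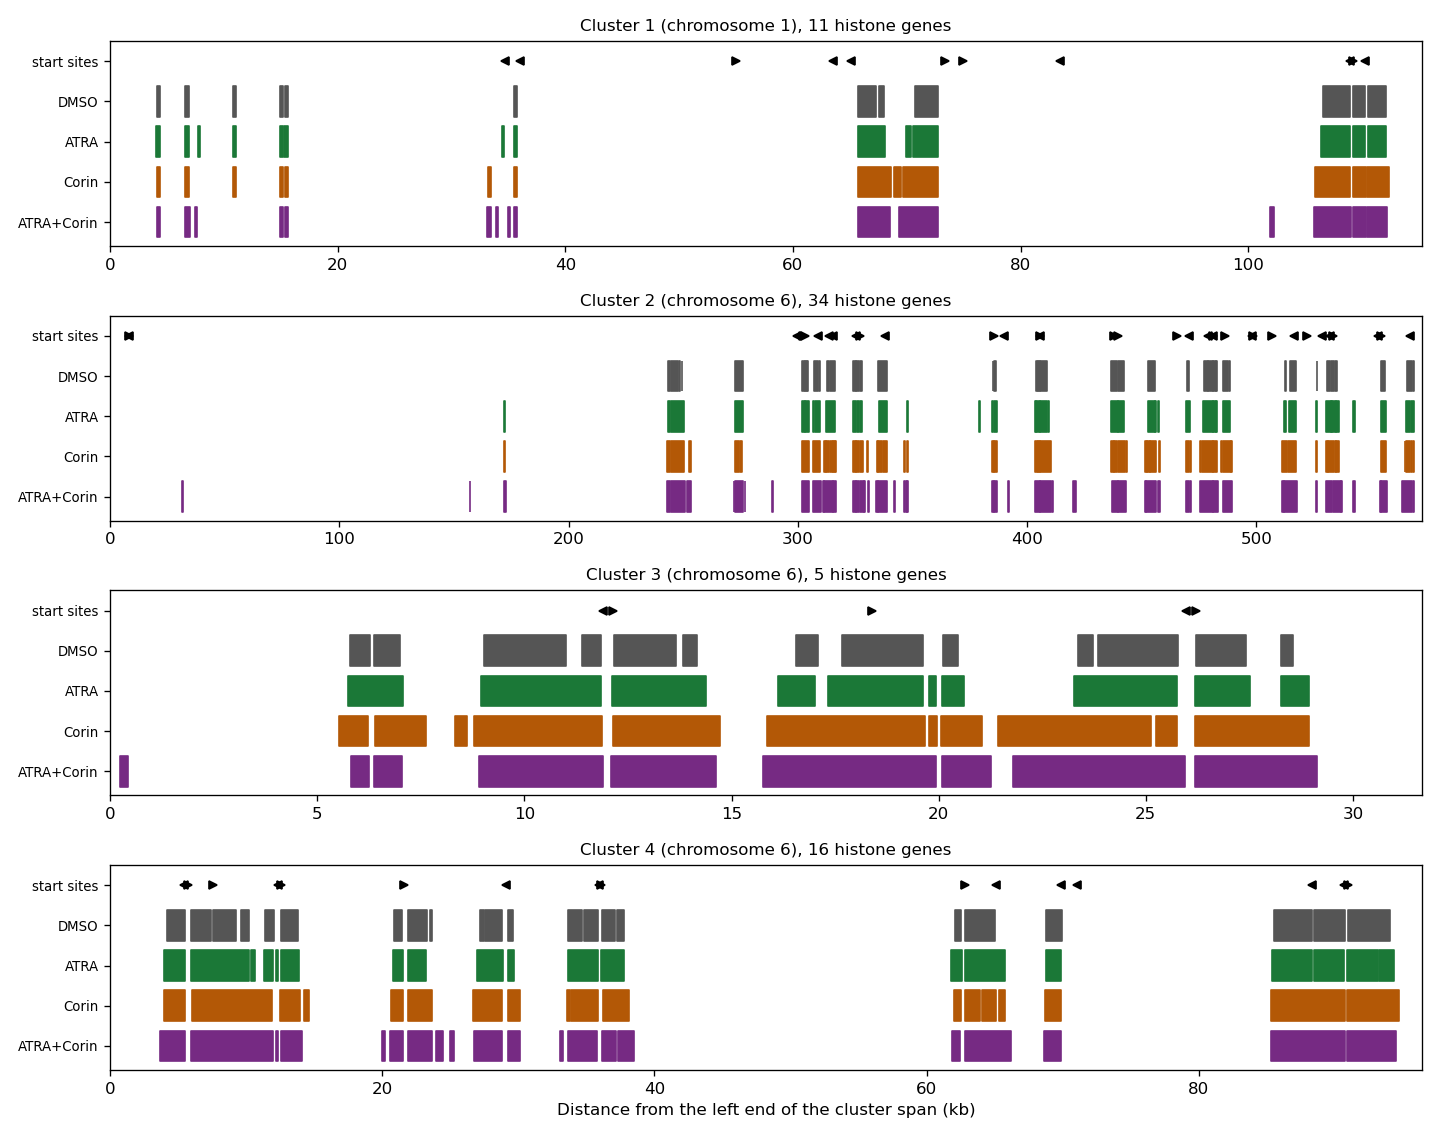
Peaks (bars) of each list along the 4 histone clusters, as distance from the left end of each span. Arrowheads mark the start sites of histone genes and point in the direction of transcription. Peaks in all lists sit at the same gene groups, and bars of the drug lists are longer or joined, as in cluster 3, where 37.9% was covered in DMSO and 62.7% in Corin.

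Over the 4 clusters together the covered share was lowest in DMSO and highest in ATRA+Corin. Of the 815.6 kb in the 4 spans, 13.1% lay under peaks in DMSO, 15.6% in ATRA, 18.1% in Corin and 20.3% in ATRA+Corin, in 87, 85, 97 and 98 peaks. Over the chromosomes as a whole 2.42%, 2.76%, 3.13% and 3.58% were covered. Cluster 3, with the pairs H2BC11/H2AC11 and H2BC12/H2AC12 and H4C9, was covered to 37.9%, 47.0%, 62.7% and 60.9%. Its peaks numbered 13, 10, 11 and 9 while their median width was 541, 1330, 1239 and 2533 bases, so that fewer, wider peaks held more DNA. Cluster 4 had 27.5%, 31.0%, 33.7% and 36.5% covered. Cluster 2, the largest, had 10.1%, 12.2%, 14.1% and 16.7% covered, in 40, 42, 55 and 54 peaks. Cluster 1, part of which is the inverted repeat, had 9.39%, 10.9%, 12.7% and 13.2% covered. Its longest peak was 2434 bases wide in DMSO and 3434 in ATRA+Corin.

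The members were set beside 3 other gene groups. The 84 cytoplasmic ribosomal protein genes, also strongly transcribed, had start sites under a peak in 18, 23, 11 and 7 cases in DMSO, ATRA, Corin and ATRA+Corin. Against DMSO they gained 10 and lost 5 in ATRA, where the histone genes gained 13 and lost 0. In Corin they gained 6 and lost 13, and in ATRA+Corin they gained 0 and lost 11. In ATRA+Corin 13.1% of them and 11.9% of all genes lost cover, but a smaller share of them had been covered in DMSO. Of the start sites covered in DMSO, 11 of 18 of the ribosomal protein genes and 2382 of 9433 of all genes lost cover there. Of the histone genes covered in DMSO, 2 of 24 lost it. Of all 73 histone genes 2.74% lost and 17.8% gained cover in ATRA+Corin. The 1828 other genes in divergent pairs had 64.9%, 66.7%, 48.6% and 47.9% of start sites covered. They gained in 4.54% and lost in 20.8% in Corin, where 13.7% of histone genes gained and 6.85% lost. Of the start sites covered in DMSO, 381 of 1186 of the other paired genes and 5 of 24 of the histone genes lost cover in Corin. The 8 other protein-coding genes inside the cluster spans had 0 start sites under a peak in each list, and 3, 3, 3 and 4 of them had a peak within 1 kb. A peak within 1 kb was found in 82 of the 84 ribosomal protein genes in each list. Of the 1828 other paired genes 1737, 1735, 1734 and 1736 had one. Both shares exceeded that of the histone genes, 54, 54, 54 and 55 of 73. At 2000 bases past the start site 78.6%, 65.5%, 91.7% and 83.3% of the ribosomal protein genes were covered. The histone genes had 37%, 45.2%, 54.8% and 58.9% there, and the other paired genes 25.2%, 27.2%, 47.2% and 49.5%. None of these differences between groups was tested, since each list is 1 sample.

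The genes that act on the histone genes were looked at in the same way. Of 24 genes for histone gene transcription and mRNA processing found in the annotation, all 24 had a peak within 1 kb in every list. Their start sites lay under a peak in 12 cases in DMSO, 11 in ATRA, 8 in Corin and 7 in ATRA+Corin. SLBP, which binds the stem-loop, CASP8AP2, a histone locus body protein, the S phase regulators CDK2, CCNE1 and CCNE2, and ZNF473 of the U7 processing complex were covered in all 4 lists. The start sites of NPAT, the activator of the histone clusters, HINFP, which binds H4 promoters, and POU2F1 were covered in none. LSM11 of the U7 complex and NFYC, a subunit of NF-Y, were covered in DMSO only. Against DMSO 2 gained and 3 lost cover in ATRA, 1 gained and 5 lost in Corin, and 0 gained and 5 lost in ATRA+Corin. Losses also outnumbered gains over all genes in both Corin lists, with 11.6% lost and 2.32% gained in Corin and 11.9% and 2.69% in ATRA+Corin. Of 18 replication-independent histone and chaperone genes, 16 had a peak within 1 kb in each list, and 12, 9, 8 and 10 had a covered start site. H2AZ1, the H2A.Z gene, was covered in ATRA+Corin only and H2AJ in both Corin lists. The chaperone genes CHAF1A, CHAF1B, ASF1B and NASP were covered in all 4. H3-3A and H3-3B, which encode H3.3, had a peak within 1 kb and an uncovered start site throughout.

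The cell line's label was checked on marker genes. Of 9 myeloid markers 8 had a peak within 1 kb in each list, MPO being the exception. None of the 3 T cell markers had one, nor did the erythroid markers GATA1 and HBB, while KLF1 had one. Of the B cell markers CD79A had one and PAX5 and MS4A1 did not. In each list 16 to 22 of the first 30000 peak numbers were not analysed here, and a position read as uncovered could lie under one of these.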

How the data were processed

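H3K4me2 was measured in U-937 cells in 12 libraries, 8 of H3K4me2 and 4 inputs. Per the submitters' processing notes, reads were handled with Trimmomatic, Bowtie2, Picard and MACS2 on hg38; versions, thresholds and depths are not given in the sources used here. The authors deposited 1 peak list per treatment, pooled over libraries, with chromosome, start and end, a fold enrichment (a ratio) and −log10 p and −log10 q values. The last 2 were used only to filter or rank peaks within a list. Peaks were intersected with GENCODE release 44 canonical start sites (Python 3.11.15, numpy 2.4.6, pandas 2.3.3), coordinates counted from 1. Clusters were chains of at least 3 members with gaps of at most 500 kb. Windows of 75 bases, the read length, were searched on both strands of the genome. Intersections recovered 200 of 200 simulated start sites among 19951. Shares have 95% Wilson intervals, which cover counting error only. Without values per replicate no test was run.

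Members and lists were chosen with earlier results of these data known. Described genes are members covered at the start site in at least 1 and not all lists, with H1-10, H1-2, H1-4, H2AC6, H2BC12, H3C1, H3C2, H4C3, H4C16, H2AC20 and H2BC21. Genes named beside them for gaps, reach and missing peaks were chosen after their values were seen. The rule for printed promoters (in each family, the first member showing its commonest pattern of start-site cover) gave mostly members near or in the repeat of chromosome 1, so only H4C14 was kept from it. Individual values of a few listed genes are not reported here. The alternatives are under the closing section.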

Additional observations from a re-analysis of the deposited data

How the results depend on the processing

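Of 99 alternative values for 17 results, 84 stayed within 1.5 times of the stated count or share. The counts of members with a peak within 1 kb and the shares of the clusters under peaks were among these under every alternative run, including peaks with a −log10 q of at least 5, equal numbers of peaks in each list and a window of 2.5 kb. Over these alternatives the cluster shares ranged from 12.5 to 14.8% in DMSO, up to 17.0% in ATRA, 17.0 to 19.8% in Corin and 19.5 to 22.2% in ATRA+Corin. The limit of 1.5 times is wide beside some differences between lists, such as 24 start sites in DMSO and 29 in Corin. A value within the limit can still move by as much as such a difference. The start-site counts depended on what counts as cover. With peaks within 1 kb joined, 47 start sites were covered in DMSO and 49 in Corin, and the net gain against DMSO was 4 in ATRA, 2 in Corin and 4 in the combination, which had a net 0 against ATRA and 2 against Corin. With a peak within 150 bases counted as cover, 46 were covered in DMSO and 47 in Corin, and the net gains were 2, 1, 2, 0 and 1 in the same order. Both settings by construction fill the short gaps at the start site. With the start of any basic transcript, the net change of ATRA+Corin against ATRA was −4 in place of −2; the cause was not tested. Leaving out members with a repeated window over the start site was added after seeing the data and moved none of the values by over 1.5 times. No paired analysis was possible because each treatment has 1 pooled list with no values per replicate, and for the same reason no replicate could be left out. Depth per library is unknown, so weak peaks of the shorter lists may be missed.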
